A study of Mus musculus with 12 samples.

Results

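The 38 genes described here encode the machinery that copies DNA in S phase, the part of the cell cycle in which the genome is replicated. They were chosen as a list of gene symbols by function, and all 38 were found among the 48526 genes counted. The RNA came from microglia, the resident macrophages of the central nervous system, that had been sorted from spinal cords of mice of the Biozzi ABH strain. The mice had chronic-relapsing experimental autoimmune encephalomyelitis (crEAE in the labels), an induced autoimmune disease in which attacks on myelin are followed by recovery and later by lasting disability, or were controls. The 12 libraries came from 3 mice each in 4 groups, named control, acute, remission and chronic, and all groups share the strain, the tissue and the sort. The sort kept CD11b+ cells with intermediate CD45 and no Ly-6C on their surface. The age and sex of the mice, the treatment of the controls and the days of sampling are not given in the sources used here.

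A cell prepares to copy its DNA by loading a ring of 6 MCM proteins onto each origin with the help of the origin recognition complex, Cdc6 and Cdt1. At the start of S phase, Cdc45, the GINS complex and Mcm10 turn that ring into a moving helicase, DNA polymerases follow it, and the sliding clamp Pcna holds them on the template. Most of these genes are targets of the E2F transcription factors, and their RNAs rise as cells pass from G1 into S phase. Microglia of the adult spinal cord divide rarely in health and are known to proliferate in disease.

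Promoter sequence was available from RefSeq (assembly GRCm38.p6) for 32 of the 38 genes, as windows from 250 bases before to 50 bases after each annotated start. The letters TTTCCCGC, TTTCGCGC, TTTGCCGC and TTTGGCGC, words that E2F proteins are known to bind, were searched on both strands. At least 1 of them was present in 14 of the 32 genes (43.8%), against 2.6% of the 27025 genes in the promoter table. CCAAT, a common promoter word searched for comparison, was present in 62.5% of the 32 genes and in 41.1% of all genes. A match is a description of these letters only. The 250 bases before the start are printed for Mcm6, whose 4 calls held in every alternative tried, for Mcm5, which shares a longer word with it, for Uhrf1 (the second of its annotated starts), and for Mcm7, which was lowest in acute libraries, and Orc1, which passed in none of the comparisons. Capitals mark the words.
Mcm6, chr1:128359706-128359955, minus strand: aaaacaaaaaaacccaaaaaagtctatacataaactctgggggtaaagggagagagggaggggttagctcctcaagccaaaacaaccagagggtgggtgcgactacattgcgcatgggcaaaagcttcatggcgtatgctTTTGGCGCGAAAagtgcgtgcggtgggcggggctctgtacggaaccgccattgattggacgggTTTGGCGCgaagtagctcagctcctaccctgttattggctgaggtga
Mcm5, chr8:75109259-75109508, plus strand: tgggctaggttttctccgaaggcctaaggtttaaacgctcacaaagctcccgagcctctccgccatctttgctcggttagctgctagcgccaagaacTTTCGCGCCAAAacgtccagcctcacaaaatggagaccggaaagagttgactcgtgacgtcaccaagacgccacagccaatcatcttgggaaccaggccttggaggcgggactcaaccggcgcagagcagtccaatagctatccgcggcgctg
Uhrf1, chr17:56304063-56304312, plus strand: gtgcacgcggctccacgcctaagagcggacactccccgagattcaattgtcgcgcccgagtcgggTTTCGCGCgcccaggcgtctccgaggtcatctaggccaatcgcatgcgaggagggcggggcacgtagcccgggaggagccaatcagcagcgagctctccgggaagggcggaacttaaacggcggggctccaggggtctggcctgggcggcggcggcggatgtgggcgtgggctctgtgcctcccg
Mcm7, chr5:138171884-138172133, minus strand: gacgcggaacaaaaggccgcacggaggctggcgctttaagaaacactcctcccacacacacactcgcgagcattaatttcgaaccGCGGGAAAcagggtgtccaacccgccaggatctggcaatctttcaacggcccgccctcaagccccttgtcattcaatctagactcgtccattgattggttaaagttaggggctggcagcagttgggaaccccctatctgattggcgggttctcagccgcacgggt
Orc1, chr4:108579204-108579453, plus strand: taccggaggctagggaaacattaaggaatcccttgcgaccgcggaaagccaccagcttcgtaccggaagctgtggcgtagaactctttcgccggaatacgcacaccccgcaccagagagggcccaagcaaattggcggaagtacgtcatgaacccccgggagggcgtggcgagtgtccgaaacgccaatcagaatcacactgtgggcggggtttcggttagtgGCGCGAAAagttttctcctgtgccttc
In Mcm6, TTTGGCGC overlaps TTTCGCGC read on the other strand to form TTTGGCGCGAAA, which starts at -110 from the start site. The window of Mcm5 holds the same 12 bases on the other strand, as TTTCGCGCCAAA at -153. This longer word was searched after the sequences were seen, and these are 2 of the 4 windows that hold it among 32851 windows. Of the 13 members that were higher in acute or in chronic libraries than in control libraries, 11 had a window and 4 of those held an E2F word. Of the tested members not higher in either, 17 had a window and 9 held a word.

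Total counts ranged from 3992885 to 5712376 per library, and 48.3 to 64.1% of them fell on 6 features. Levels are counts scaled to library size (CPM) with trimmed-mean (TMM) factors, and 1 count was worth 0.142 to 0.294 CPM. Fold changes are log2 values from edgeR's quasi-likelihood model of all 12 libraries, with their standard error (SE), and a gene is said to rise or fall at an adjusted p under 0.05 over the 12545 genes tested. Of the 38 members, 31 passed the filter on low counts and were tested. The other 7 (Cdc6, Gins1, Gins2, Rfc4, Fen1, Ccne1 and Exo1) held 0 to 21 counts per library. Markers of microglia were present in every group, with P2ry12 at 677 ± 93.9 CPM in control mice, 65.7 ± 18.7 in the acute phase, 325 ± 10.7 during remission and 259.5 ± 33.6 in the chronic phase (mean ± SD, n = 3). Tmem119, another microglial gene, stood at 969 ± 69.4 CPM in control mice, 185 ± 47.7 in the acute phase, 535 ± 66.5 during remission and 584 ± 20.4 in the chronic phase. The CD45 gene Ptprc averaged 420.3 ± 35.3, 419 ± 20.8, 427 ± 50.4 and 375 ± 38.9 CPM in the same order of groups, and the CD11b gene Itgam 131 ± 14.5, 84.9 ± 20.9, 100.4 ± 18.1 and 174 ± 46.6 CPM. S100a8 of neutrophils and Cd3e of T cells had 0 counts in control libraries and averaged 35 ± 25.1 and 12.3 ± 3.51 CPM in acute ones.

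Summed over the 38 genes, replication RNA was higher in acute and chronic than in control libraries and lowest in remission. The sums were 182, 161 and 149 CPM in control mice, 276, 226 and 254 in the acute phase, 147, 144 and 139 during remission and 215, 225 and 508 in the chronic phase. All acute libraries lay above all control libraries, and all remission libraries lay below them. Chronic replicate 3 stood apart, at 2.31 times the mean of the other 2 chronic libraries, and it was the highest of the 12 libraries for 32 of the 38 genes. The chronic mean was 1.93 times the control mean with that library and 1.34 times without it, while the acute mean was 1.54 times and the remission mean 0.876 times the control mean. Chronic replicates 1 and 2 were both above the highest control library for 20 of the 38 genes and both above the highest remission library for 23. The share of all genes with this order was not counted, so these counts cannot be set against a background. With library totals in place of TMM factors, which lowers the median of all genes in acute against control by 0.54 on the log2 scale, the summed acute to control ratio was 0.063 on that scale in place of 0.62.

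**Figure D1:**
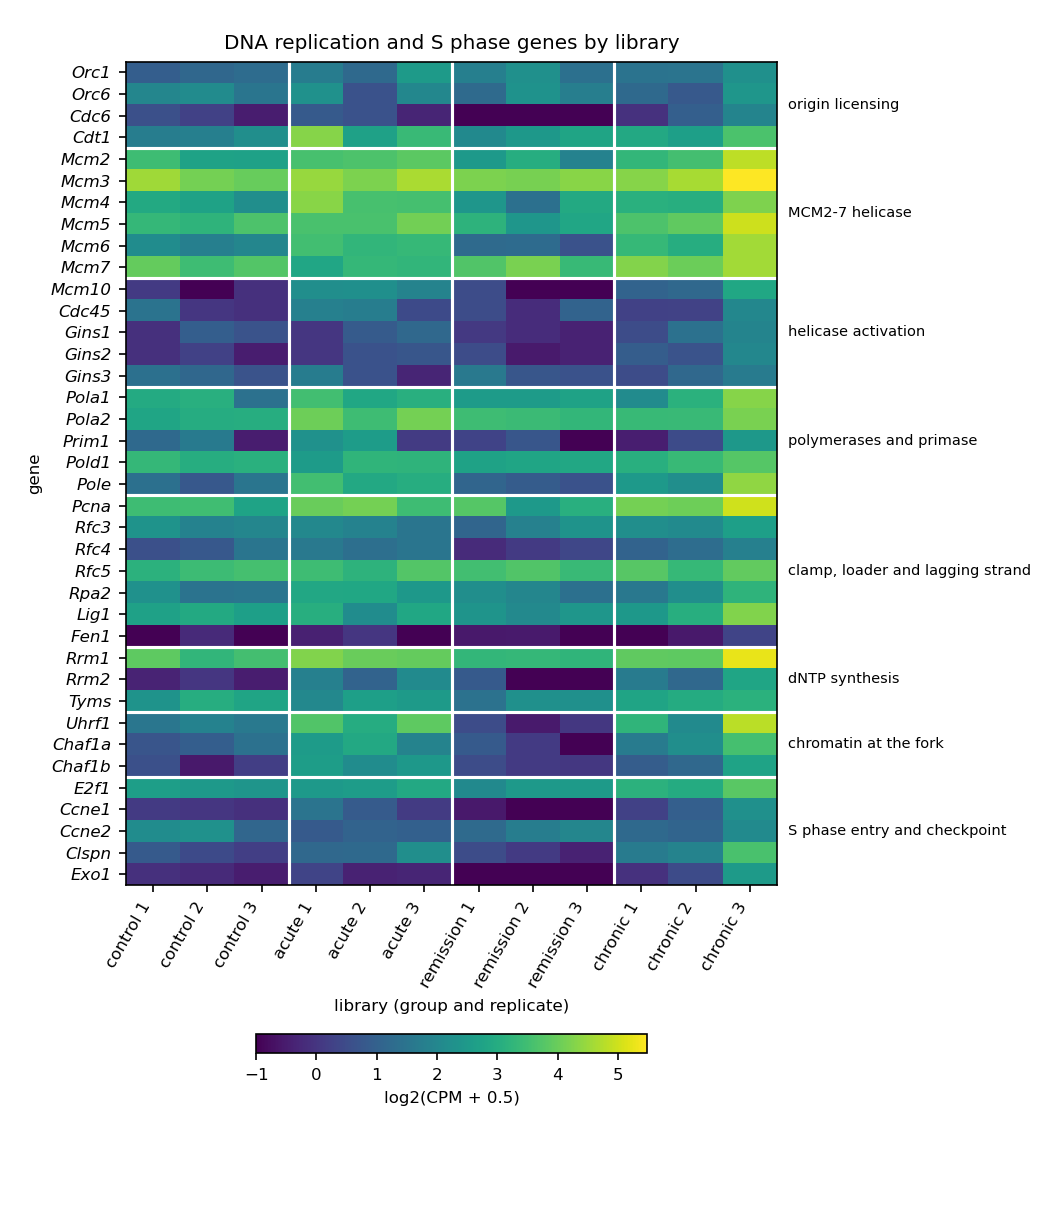
Heat map of log2(CPM + 0.5) for the 38 genes (rows, grouped by role) in the 12 libraries (columns). Chronic replicate 3 is the brightest column, and Cdc6 and Exo1 have 0 counts in all 3 remission libraries.

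Marker lists of other cells differed between the groups, each in its own way, and monocyte genes were high in the acute libraries. The 15 monocyte and recruited macrophage genes summed to 1777 to 2683 CPM in acute libraries, against 29.9 to 74 in control, 39.8 to 47.7 in remission and 48.1 to 69 in chronic ones, and all 14 that were tested rose in acute libraries. Of the 13 T and NK cell genes, 7 were tested, and 6 rose and 1 fell in acute libraries. Their sums were 22.6 to 36.4 CPM in control, 70.6 to 111 in acute, 5.57 to 9.25 in remission and 2.73 to 9.04 in chronic ones, so the whole list was below control in the chronic phase. Il7r held most of the control sum, and the other 12 genes summed to 0 to 0.70 CPM in control, then to 58.6 to 95.4 CPM in acute libraries and to at most 0.900 in chronic libraries, where Cd3e, Trac and Nkg7 had 0 counts. The 13 neutrophil genes summed to 348 to 456 CPM in control, 277 to 588 in acute and 297 to 358 in chronic libraries, with an acute to control ratio of means of 1.001. Csf3r made up nearly all of the control sum and fell in acute libraries, from 393 ± 55.6 to 139 ± 20.9 CPM (adjusted p = 4.24e-08). The other 12 summed to 0.35 to 0.645 CPM in control, to 127 to 435 CPM in acute libraries and to 1.36, 0.18 and 12 in the 3 chronic libraries, so the chronic library with the most replication RNA also held the most of these, and Elane, Mpo and Retnlg had 0 counts in all 3. Dendritic cell genes summed to 184 to 212 CPM in control, 40.02 to 47.7 in acute and 72.3 to 110.4 in chronic libraries, and B and plasma cell genes to 51.8 to 77, 20.2 to 22.5 and 36.9 to 57.8. Both sums were below control in every acute library. In the chronic libraries the dendritic cell sums were below control while the B and plasma cell sums overlapped it. Single genes differed from these sums. Of 3 dendritic cell genes tested, Flt3 rose while Fscn1 and Zbtb46 fell in acute libraries. Xcr1, Clec9a, Cd209a and Ccr7 each held 10 or fewer counts over the control libraries. The 2 B and plasma cell genes tested, Ighm and Cd79b, fell, while Jchain had 0 counts in control and more than 10 over the acute libraries. Astrocyte genes summed to 57.9 to 74.2, 180.2 to 224 and 109 to 202 CPM in control, acute and chronic libraries, and endothelial and pericyte genes to 9.68 to 11, 17.1 to 21.5 and 22.6 to 59.95. For both sums every acute and chronic library was above every control one. Of 6 endothelial and pericyte genes 3 were tested, and 1 rose and 1 fell in each of the 2 comparisons with control. Flt1 rose in both, while Pdgfrb fell in acute and Pecam1 in chronic libraries. Oligodendrocyte genes summed to 70.8 to 86.3, 423 to 549 and 64.8 to 96.4 CPM, and erythroid genes to 1.51 to 3.54, 19.4 to 69.7 and 2.34 to 4.78. Of the 10 microglial genes, all fell in acute libraries, with sums of 2292 to 3562 CPM against 9277 to 10410 in control and 7123 to 7457 in chronic libraries. The gate as described would remove T cells, which mostly lack CD11b, and Ly-6C+ monocytes, yet Ly6c2 stood at 75.5, 73.4 and 42.4 CPM in the acute libraries and at 0 in the control ones. The part of these other cells in the values of the replication genes was not tested. In bulk RNA, a change in the share of dividing cells and a change in RNA per cell cannot be told apart.

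**Figure D2:**
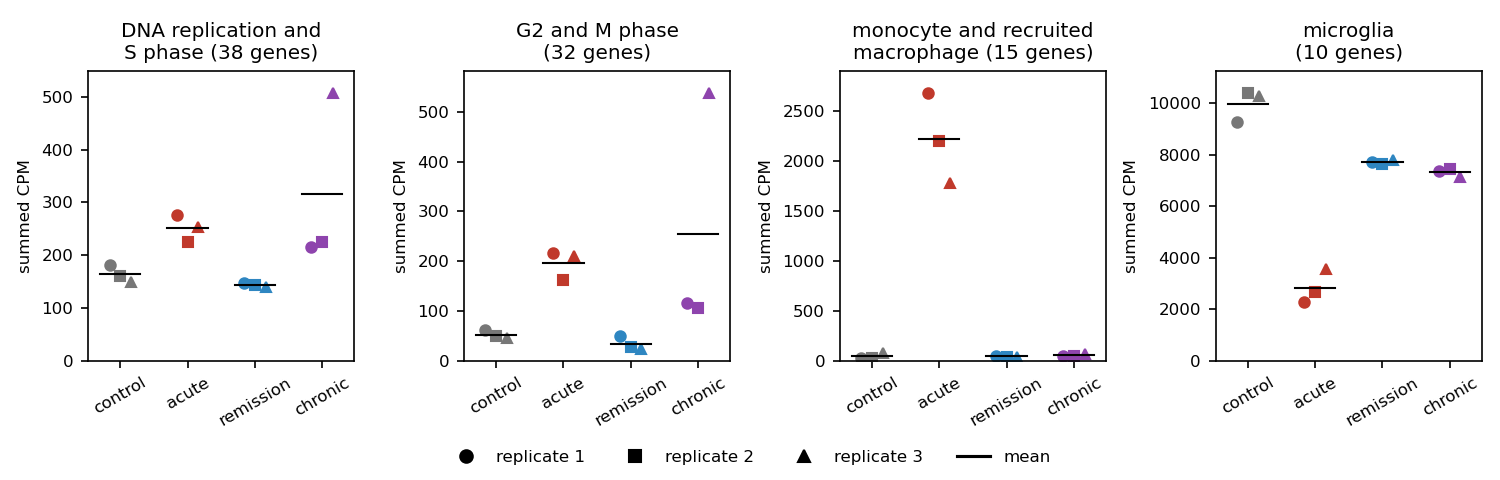
Summed CPM per library of the 38 replication genes, 32 genes of G2 and M phase, 15 monocyte and recruited macrophage genes and 10 microglial genes, with symbols for the 3 replicates and a line at the mean. Replication and G2 and M phase genes are above every control library in all acute and chronic libraries, and highest in chronic replicate 3. Monocyte genes are high in acute libraries only.

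Acute libraries were compared with control libraries to ask what differed during the acute attack. Of the 31 members tested, 10 rose, where 23.3% of all genes tested rose, and 0 fell, where 20.4% of all genes fell (43.7% in either direction). The 10 were Mcm4, Mcm6, Mcm10, Cdt1, Pola2, Pole, Rrm2, Uhrf1, Chaf1a and Chaf1b. Without adjustment 12 were higher and 2 lower at p under 0.05, DESeq2 called 10 higher and 0 lower, and limma-voom 11 higher and 0 lower. With library totals alone, 7 were higher and 4 lower (Ccne2, Mcm7, Pold1 and Tyms). That fit called 7035 of all genes, and 22.8% of those calls were higher. The median log2 fold change of the tested members was 0.70, against 0.0085 over all genes tested. The acute and control libraries did not overlap for 14 higher members (29.5% of all genes) and 2 lower ones (27.3%). Among the 10 calls, 7 held when any 1 library was left out, namely Mcm6, Mcm10, Cdt1, Pola2, Pole, Rrm2 and Chaf1b. The call for Mcm4 was lost when control replicate 3 or acute replicate 1 was dropped, and with library totals. Dropping control replicate 1 or either of acute replicates 1 and 3 ended that for Uhrf1. That for Chaf1a was lost on dropping either of control replicates 1 and 2 or either of acute replicates 1 and 2. It was also lost on adding the title number to the fit or with library totals.

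Remission libraries held less replication RNA than acute libraries. From acute to remission, 12 of the 31 members fell, where 18.8% of all genes tested fell, and 1 rose (Mcm7), where 18.3% rose. The 12 were Mcm2, Mcm4, Mcm5, Mcm6, Mcm10, Cdt1, Pole, Rrm2, Uhrf1, Chaf1a, Chaf1b and Clspn, and the median log2 fold change was -0.82. Remission libraries lay wholly below acute ones for 14 members (24.1% of all genes) and wholly above them for 2 (24.2%). Of these 12 calls, 7 (Mcm4, Mcm6, Mcm10, Pole, Uhrf1, Chaf1a and Chaf1b) held in every leave-one-out fit and in every other alternative tried. Against control libraries, 0 members rose and 0 fell in remission by edgeR, where 6.14% and 3.16% of all genes did (9.29% in either direction). Without adjustment 0 were higher and 3 lower, DESeq2 called 0 higher and 1 lower, and limma-voom called 0 in both directions. The median log2 fold change from control to remission was -0.29, and 23 of the 31 values were below 0. The libraries did not overlap for 2 members higher (14.8% of all genes) and 6 lower (13.4%) in remission.

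Most calls in the chronic phase rested on 1 library. Against control libraries, 11 of the 31 members rose, where 9.51% of all genes tested rose, and 0 fell, where 5.22% fell. The 11 were Mcm6, Mcm10, Pcna, Cdt1, Pole, Rrm2, Uhrf1, Chaf1a, Chaf1b, E2f1 and Clspn. Without chronic replicate 3, 1 of 32 members tested rose (Mcm6), where 7.2% of all genes did, and 0 fell, where 3.86% did. Rfc4 passed the filter on low counts in that fit. The number of members that rose was 5 without control replicate 1, 5 without control replicate 2 and 3 without control replicate 3. Calls over all genes, in either direction, also dropped in these fits, from 1848 with all libraries to 1293, 1216 and 1348. Without adjustment 18 members were higher and 0 lower with all libraries, DESeq2 called 11 higher and 0 lower, and limma-voom 10 higher and 0 lower. The median log2 fold change of the members was 0.79, against -0.011 over all genes tested, and chronic libraries lay wholly above control ones for 17 members (16.5% of all genes) and wholly below for 0 (15.9%). Against remission libraries, 6 members rose in chronic libraries (Mcm5, Mcm6, Pole, Uhrf1, Chaf1a and Clspn), where 0.917% of all genes rose, and 0 fell, where 0.271% fell. Chronic libraries lay wholly above remission ones for 17 members (9.16% of all genes) and wholly below for 0 (8.75%). The count of calls was 2 (Mcm6 and Uhrf1) without chronic replicate 3, where 0.331% of all genes rose and 0.0451% fell, and 1 (Mcm6) without remission replicate 3. Calls over all genes numbered 149 with all libraries and 17 without remission replicate 3. Between chronic and acute libraries 1 member differed, Mcm7, which was higher in chronic libraries, where 13.7% of all genes were higher and 15.2% lower (12.3% and 15.6% without chronic replicate 3). These libraries did not overlap for 5 members, all higher in chronic ones (19% of all genes; 21.2% lay lower).

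**Figure D3:**
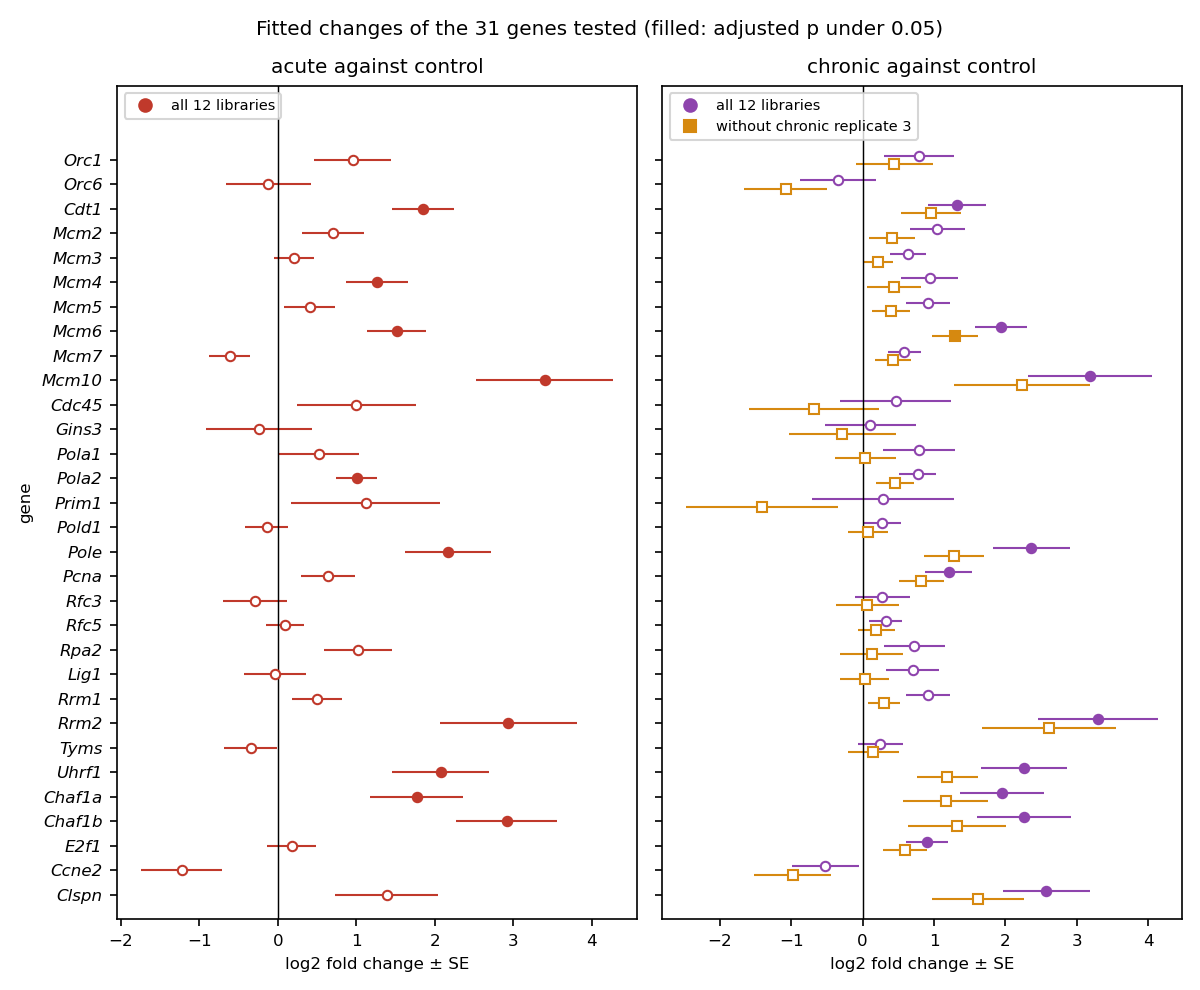
Fitted log2 fold changes ± SE of the 31 genes tested, for acute against control (left) and chronic against control (right), filled where the adjusted p is under 0.05. In the right panel, squares give the fit without chronic replicate 3, where Mcm6 is the filled one.

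Among the genes that license origins, Cdt1 changed, while Orc1 and Orc6 passed in none of the comparisons. Cdt1 carries the MCM ring to origins and is destroyed once S phase begins. Its level was 2.83, 2.98 and 4.09 CPM in control mice, 19.2, 6.03 and 10.01 in the acute phase, 3.7, 5.0 and 6.36 during remission and 7.05, 5.76 and 12 in the chronic phase. All acute and chronic libraries lay above all control libraries, and acute replicate 1 was the highest of the 12. Cdt1 rose in acute (log2 fold change 1.85 ± 0.40 SE, adjusted p = 0.000839) and in chronic libraries (log2 fold change 1.32 ± 0.40 SE, adjusted p = 0.0306). The second call ended without chronic replicate 3 (adjusted p = 0.176) or without any 1 of the control libraries. The number in the library titles, library totals and limma-voom each ended it too. From acute to remission Cdt1 fell (log2 fold change -1.25 ± 0.39 SE, adjusted p = 0.016), a call that ended without acute replicate 1 or remission replicate 1, and with limma-voom. Orc1, the ATPase subunit of the origin recognition complex, averaged 1.7 ± 0.264 CPM in control mice, 3.31 ± 1.79 in the acute phase, 3.1 ± 1.06 during remission and 2.96 ± 1.13 in the chronic phase. Orc6, a small subunit of the same complex, averaged 3.21 ± 0.761, 2.98 ± 1.72, 3.06 ± 1.29 and 2.62 ± 1.89 CPM in the same order. Cdc6, which loads the ring together with Cdt1 and was not tested, had 7, 4 and 1 counts in the control libraries, 5, 4 and 1 in acute, 0 in all 3 remission libraries and 2, 8 and 13 in chronic libraries. A sum of 0 counts over the remission libraries allows up to 0.209 CPM (3 counts), counting error only.

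The 6 subunits of the MCM2-7 ring, which stand side by side in the assembled helicase, differed in the comparisons they passed, from 4 for Mcm6 to 0 for Mcm3. Mcm6 (ENSMUSG00000026355, chromosome 1 from 128331590 to 128359664, GRCm38) stood at 3.96, 2.98 and 3.44 CPM in control mice, 11, 9.17 and 9.71 in the acute phase, 1.85, 1.92 and 1.06 during remission and 9.55, 7.74 and 23.6 in the chronic phase. Its acute and chronic libraries lay above all control libraries and its remission libraries below them, with no overlap. Remission against control did not pass for Mcm6 (log2 fold change -1.06 ± 0.45 SE, adjusted p = 0.167), and passed as lower with library totals. Mcm6 rose in acute (log2 fold change 1.51 ± 0.38 SE, adjusted p = 0.00265) and in chronic libraries (log2 fold change 1.94 ± 0.37 SE, adjusted p = 0.000777), and it fell from acute to remission (log2 fold change -2.57 ± 0.43 SE, adjusted p = 8.09e-05). It was higher in chronic than in remission libraries (log2 fold change 3.0 ± 0.41 SE, adjusted p = 0.00105). All 4 calls held in every leave-one-out fit and every other alternative. Without chronic replicate 3, the chronic to control value was 1.3 (adjusted p = 0.0098).

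Mcm7, another subunit of the ring, was lowest in acute libraries. Its level was 15, 10.5 and 12.9 CPM in control mice, 6.65, 9.43 and 9.12 in the acute phase, 12.8, 17.5 and 9.81 during remission and 18.9, 15.8 and 23.3 in the chronic phase. The acute libraries did not overlap with those of any other group, and the chronic libraries were all above the control libraries. Mcm7 was higher in chronic than in acute libraries (log2 fold change 1.2 ± 0.25 SE, adjusted p = 0.00118), a call that held in every alternative and had a value of 1.03 without chronic replicate 3. Against control, the acute value (log2 fold change -0.61 ± 0.25 SE, adjusted p = 0.0566) did not pass. That value passed as lower without control replicate 2, without remission replicate 2 and with library totals. From acute to remission Mcm7 rose (log2 fold change 0.68 ± 0.26 SE, adjusted p = 0.042), a call that ended in 6 of the 12 leave-one-out fits, in those without control replicate 3, any acute library, or remission replicates 1 or 2. Of the exon bases of Mcm7, 12.6% overlap genes on the other strand (Cops6 and Ap4m1) or the microRNA genes Mir25 and Mir93 that it hosts, and the library kit does not keep the strand.

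The other 4 subunits passed in 2 comparisons or fewer. Mcm4 was at 7.22, 6.13 and 4.09 CPM in control mice, 19.4, 11.5 and 11.5 in the acute phase, 4.81, 2.12 and 7.16 during remission and 8.19, 7.92 and 18.3 in the chronic phase. Its acute libraries were all above its control libraries, and it rose in acute (log2 fold change 1.26 ± 0.39 SE, adjusted p = 0.0157) and fell from acute to remission (log2 fold change -1.63 ± 0.42 SE, adjusted p = 0.00545). Mcm5 was at 9.48, 8.75 and 12.3 CPM in control mice, 11.8, 11.8 and 16.8 in the acute phase, 8.69, 4.81 and 6.63 during remission and 12.3, 14.4 and 31.1 in the chronic phase. Acute and control libraries overlapped for Mcm5, and remission libraries were below acute and chronic ones. It fell from acute to remission (log2 fold change -0.99 ± 0.34 SE, adjusted p = 0.0284) and was higher in chronic than in remission libraries (log2 fold change 1.5 ± 0.33 SE, adjusted p = 0.0312). The fall ended without acute replicate 3, remission replicate 2 or remission replicate 3, and with library totals. The chronic call ended without chronic replicate 3 (adjusted p = 0.151), remission replicates 2 or 3, control replicates 1 or 2, or acute replicate 2. The title number, limma-voom and the fit of only the 2 groups each ended it too. Mcm2 was at 10.6, 6.13 and 6.02 CPM in control mice, 11.5, 12.3 and 13.8 in the acute phase, 5.18, 7.69 and 3.18 during remission and 9.33, 11.2 and 27.9 in the chronic phase. Its acute libraries were all above its control and remission libraries. Mcm2 fell from acute to remission (log2 fold change -1.19 ± 0.42 SE, adjusted p = 0.0355), a call that ended in 5 leave-one-out fits, those without any 1 acute library, remission replicate 1 or remission replicate 3. Mcm3 passed in none of the 6 comparisons, with 23.2, 17 and 15.3 CPM in control mice, 21.7, 18.1 and 24.7 in the acute phase, 17.8, 17.3 and 19.6 during remission and 19.1, 24.3 and 44.2 in the chronic phase. All 4 groups of Mcm3 overlapped. Without chronic replicate 1, Mcm3 passed as higher in chronic libraries than in each other group.

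**Figure D4:**
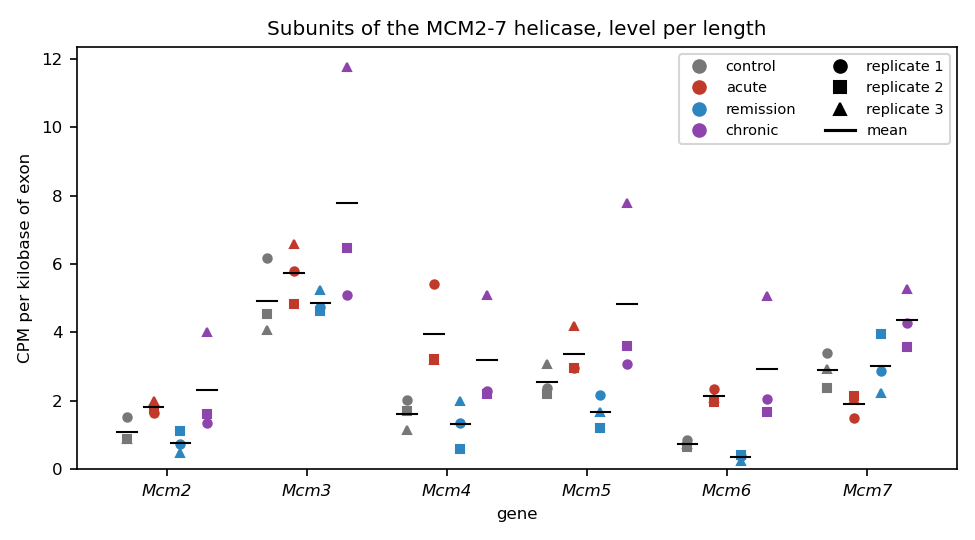
CPM per kilobase of exon for the 6 MCM2-7 subunits in each of the 12 libraries, coloured by group, with a symbol per replicate and a line at the group mean. In control libraries the means run from 0.742 for Mcm6 to 4.93 for Mcm3.

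Scaled to exon length, the subunits of this ring had unequal levels. In control libraries Mcm3 held 4.93 ± 1.11 CPM per kilobase, Mcm7 2.89 ± 0.509, Mcm5 2.55 ± 0.463, Mcm4 1.62 ± 0.443, Mcm2 1.09 ± 0.377 and Mcm6 0.742 ± 0.106 (mean ± SD, n = 3). Mcm7 and Mcm5 differed by less than either SD. In acute libraries Mcm6 was at 2.13 ± 0.201 and Mcm7 at 1.9 ± 0.344 CPM per kilobase, values that overlap. In remission Mcm6 was at 0.345 ± 0.102 and Mcm7 at 3.02 ± 0.876. Exon length here is the union of all annotated exons, so a gene with long unused exons reads low on this scale.

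Of the factors that activate the helicase, Mcm10, which helps the ring open and begin unwinding, changed. It had 4, 0 and 2 counts in control mice, 16, 16 and 11 in the acute phase, 5, 0 and 0 during remission and 7, 10 and 27 in the chronic phase. Scaled, these were 0.566, 0 and 0.43 CPM in control mice, 4.09, 4.19 and 3.24 in the acute phase, 0.925, 0 and 0 during remission and 1.59, 1.8 and 6.78 in the chronic phase. Control and remission libraries were at or under 0.925 CPM, and every acute and chronic library was above them. Mcm10 rose in acute (log2 fold change 3.4 ± 0.87 SE, adjusted p = 0.00362) and chronic libraries (log2 fold change 3.19 ± 0.87 SE, adjusted p = 0.0166), and fell from acute to remission (log2 fold change -3.4 ± 0.90 SE, adjusted p = 0.00577). The chronic call ended without chronic replicate 3 (log2 fold change 2.23, adjusted p = 0.161), control replicate 2 or control replicate 3. Cdc45, which joins the ring to form the active helicase, averaged 1.07 ± 1.03 CPM in control mice, 2.28 ± 1.21 in the acute phase, 0.967 ± 0.604 during remission and 1.64 ± 1.62 in the chronic phase and passed in none of the comparisons. Gins3, a subunit of GINS, averaged 1.65 ± 0.531, 1.39 ± 1.29, 1.6 ± 0.857 and 1.82 ± 0.926 CPM and also passed in none. The GINS subunits Gins1 and Gins2, not tested, had 29 and 26 counts over the 3 chronic libraries, against 16 and 8 in control, 13 and 10 in acute and 6 and 7 in remission libraries. Gins2 shares 67.3% of its exon bases with Gse1 on the other strand, so its counts are uncertain.

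Among polymerase genes, Pole, the catalytic subunit of the leading strand polymerase epsilon, passed in 4 comparisons. It stood at 2.12, 1.23 and 2.37 CPM in control mice, 11, 7.07 and 7.65 in the acute phase, 1.66, 1.35 and 1.06 during remission and 5.23, 4.14 and 20.8 in the chronic phase. Every acute and chronic library was above every control and remission library. Pole rose in acute (log2 fold change 2.16 ± 0.54 SE, adjusted p = 0.00395) and in chronic libraries (log2 fold change 2.36 ± 0.54 SE, adjusted p = 0.00575), fell from acute to remission (log2 fold change -2.61 ± 0.58 SE, adjusted p = 0.00213) and was higher in chronic than in remission libraries (log2 fold change 2.81 ± 0.57 SE, adjusted p = 0.027). Without chronic replicate 3, the chronic to control value was 1.28 (adjusted p = 0.0559) and the chronic to remission value 1.74 (adjusted p = 0.0999). Leaving out any 1 remission library, or using limma-voom, also ended the chronic to remission call. Both chronic calls ended with only the 2 groups compared.

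Pola2, the regulatory subunit of polymerase alpha, which starts each new strand with primase, stood at 6.51, 7.53 and 7.74 CPM in control mice, 16.1, 10.5 and 17.1 in the acute phase, 10.5, 10.2 and 9.28 during remission and 9.78, 10.1 and 17.6 in the chronic phase. It rose in acute libraries (log2 fold change 1.0 ± 0.26 SE, adjusted p = 0.0037), a call that held in every leave-one-out fit and ended with library totals. Its remission libraries were also all above its control libraries, with a value that did not pass (adjusted p = 0.318). Pola1, the catalytic subunit of the same polymerase, averaged 5.86 ± 3.23 CPM in control mice, 8.58 ± 2.17 in the acute phase, 5.62 ± 0.418 during remission and 10.5 ± 7.96 in the chronic phase. The primase subunit Prim1 averaged 1.56 ± 1.23, 3.48 ± 2.57, 0.631 ± 0.585 and 2.05 ± 2.59 CPM, and libraries of 1 group differed widely, from 0.589 to 5.5 CPM in acute. Pold1, the catalytic subunit of the lagging strand polymerase delta, averaged 8.45 ± 0.923, 7.7 ± 2.02, 6.51 ± 0.395 and 10.3 ± 2.57 CPM. Pola1, Prim1 and Pold1 passed in none of the comparisons with all libraries. Prim1 passed as lower in remission than in acute libraries without acute replicate 3 or chronic replicate 3.

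With all 12 libraries, the clamp and the genes of lagging strand work showed 1 call, for Pcna in chronic libraries. Pcna, the sliding clamp, stood at 10.5, 10.9 and 6.24 CPM in control mice, 15.6, 17 and 10.6 in the acute phase, 13.1, 5.19 and 7.95 during remission and 16.8, 16.2 and 31.9 in the chronic phase. Its 3 chronic libraries were above all control and remission libraries, and acute libraries overlapped with control ones. Pcna rose in chronic against control libraries (log2 fold change 1.2 ± 0.33 SE, adjusted p = 0.0211). That call ended without chronic replicate 3 (log2 fold change 0.82, adjusted p = 0.112), control replicate 1 or control replicate 3, and with library totals. A pseudogene, Pcna-ps2, held 89 counts over the 12 libraries, and reads shared with it could be split. The clamp loader subunits Rfc3 and Rfc5 averaged 3.71 ± 0.727 and 10.1 ± 1.47 CPM in control, 3.03 ± 0.622 and 10.7 ± 2.16 in acute, 3.08 ± 1.42 and 11.2 ± 1.34 in remission, and 4.55 ± 1.07 and 12.7 ± 2.63 in chronic libraries. Neither passed in any comparison, and the fitted acute to control values were -0.29 and 0.09.

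Rpa2, a subunit of the protein that coats single-stranded DNA, averaged 3.01 ± 1.19 CPM in control and 6.24 ± 1.07 in acute libraries, a difference that did not pass (log2 fold change 1.02 ± 0.43 SE, adjusted p = 0.0588), although all 3 acute libraries were above all control libraries. Rpa2 passed as higher without control replicate 1, chronic replicate 1 or chronic replicate 3 (adjusted p = 0.0354 without the last). In remission it averaged 3.22 ± 0.997 and in chronic libraries 5.14 ± 3.26 CPM. Lig1, the ligase that joins lagging strand fragments, averaged 6.36 ± 0.724, 6.21 ± 2.06, 4.35 ± 0.608 and 10.5 ± 7.14 CPM in control, acute, remission and chronic libraries. The chronic mean of Lig1 rests on chronic replicate 3, at 18.6 CPM against 5.0 and 7.92 in the other 2. Rfc4, another loader subunit, was not tested with all 12 libraries and had 25, 26, 8 and 30 counts over the control, acute, remission and chronic groups. With 1 library left out, Rfc4 fell from acute to remission, except without acute replicate 1 or remission replicate 1. Without chronic replicate 3 the log2 fold change of Rfc4 was -2.02 (adjusted p = 0.022). Fen1, the nuclease that trims lagging strand fragments, had 0 to 3 counts per library, and 84.2% of its exon bases overlap Gm10143 and Tmem258 on the other strand, so its counts are uncertain.

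Supply of deoxynucleotides is represented by the subunits of ribonucleotide reductase and by thymidylate synthase. Rrm2, the small subunit of the reductase, which is made in S phase, stood at 0.283, 0.525 and 0.215 CPM in control mice, 3.07, 1.57 and 3.83 in the acute phase, 1.29, 0 and 0 during remission and 2.73, 1.8 and 6.53 in the chronic phase. Remission replicates 2 and 3 had 0 counts, and every acute and chronic library was above every control and remission library. Rrm2 rose in acute (log2 fold change 2.94 ± 0.87 SE, adjusted p = 0.00992) and chronic libraries (log2 fold change 3.3 ± 0.85 SE, adjusted p = 0.0103) and fell from acute to remission (log2 fold change -2.5 ± 0.86 SE, adjusted p = 0.027). The chronic call ended without chronic replicate 3 (log2 fold change 2.61, adjusted p = 0.0867), control replicate 1 or control replicate 3, and the fall ended without acute replicates 1 or 3 or remission replicates 2 or 3. Remission replicate 1, which held all 7 Rrm2 counts of its group and all 5 of Mcm10, also had the highest oligodendrocyte sum of the 12 libraries (689.6 CPM, against 61.2 and 115 in its group). The 12 neutrophil genes other than Csf3r summed to 62 CPM in that library. The part of these cells was not tested. Rrm1, the large subunit, stood at 14.2, 9.1 and 11.2 CPM in control mice, 18.4, 15.5 and 15 in the acute phase, 9.25, 9.42 and 9.01 during remission and 14.3, 14.2 and 37.6 in the chronic phase and passed in none of the comparisons. All of its remission libraries were below all acute and chronic ones (remission against acute adjusted p = 0.0636). The remission against acute value of Rrm1 passed as lower when any 1 chronic library was left out. Without chronic replicate 1 or 2, Rrm1 also passed as higher in chronic than in control and in remission libraries. Tyms, which makes thymidylate, averaged 6.23 ± 1.6 CPM in control mice, 4.88 ± 1.15 in the acute phase, 3.56 ± 1.16 during remission and 7.34 ± 0.957 in the chronic phase and passed in none.

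The 3 genes that act on chromatin behind the fork all rose in acute and in chronic libraries and all fell from acute to remission. Uhrf1 recognises DNA methylated on 1 strand and guides the maintenance of DNA methylation, and Chaf1a and Chaf1b encode subunits of CAF-1, which places histones on new DNA. Their summed level was 4.53, 4.73 and 5.38 CPM in control mice, 23.8, 18.6 and 22.4 in the acute phase, 3.14, 1.35 and 1.06 during remission and 13, 9.72 and 44.9 in the chronic phase. The acute mean was 4.42 times and the remission mean 0.379 times the control mean, and the chronic mean was 4.62 times with chronic replicate 3 and 2.33 times without it. With all libraries, remission against control passed for none of the 3 (adjusted p = 0.171 for Uhrf1, 0.417 for Chaf1a and 0.945 for Chaf1b). Chaf1b averaged 0.677 CPM in remission and 0.604 in control libraries, so it did not share the low sum.

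Uhrf1 stood at 2.41, 3.15 and 2.58 CPM in control mice, 12.8, 7.6 and 14.1 in the acute phase, 0.925, 0.192 and 0.53 during remission and 8.87, 3.78 and 27.4 in the chronic phase. Its remission libraries were the 3 lowest of the 12 and its chronic libraries were all above the control ones. It rose in acute (log2 fold change 2.07 ± 0.61 SE, adjusted p = 0.0156) and in chronic libraries (log2 fold change 2.26 ± 0.61 SE, adjusted p = 0.0243), and it fell from acute to remission (log2 fold change -4.31 ± 0.81 SE, adjusted p = 0.00111). The chronic call against control ended without chronic replicate 3 (log2 fold change 1.19, adjusted p = 0.0899) or without any 1 control library. The title number, limma-voom and the fit of only the 2 groups each ended it too. From remission to chronic Uhrf1 rose (log2 fold change 4.49 ± 0.79 SE, adjusted p = 0.022), a call that held without chronic replicate 3 (log2 fold change 3.43, adjusted p = 0.00398). This call ended without remission replicate 1 or 3, and with limma-voom or only the 2 groups compared. Remission against control did not pass (log2 fold change -2.23 ± 0.92 SE, adjusted p = 0.171) with all libraries, and passed as lower without chronic replicate 2 or chronic replicate 3.

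Chaf1b stood at 0.991, 0.175 and 0.645 CPM in control mice, 5.63, 3.93 and 5.0 in the acute phase, 0.925, 0.577 and 0.53 during remission and 1.36, 1.8 and 6.28 in the chronic phase. Every acute and chronic library was above every control and remission library. It rose in acute (log2 fold change 2.91 ± 0.64 SE, adjusted p = 0.000965) and chronic libraries (log2 fold change 2.26 ± 0.66 SE, adjusted p = 0.0228), and fell from acute to remission (log2 fold change -2.77 ± 0.65 SE, adjusted p = 0.00228). Chaf1a stood at 1.13, 1.4 and 2.15 CPM in control mice, 5.37, 7.07 and 3.24 in the acute phase, 1.29, 0.577 and 0 during remission and 2.73, 4.14 and 11.3 in the chronic phase, with the same separation of libraries. It rose in acute (log2 fold change 1.77 ± 0.60 SE, adjusted p = 0.0214) and chronic libraries (log2 fold change 1.95 ± 0.58 SE, adjusted p = 0.0286), fell from acute to remission (log2 fold change -2.9 ± 0.68 SE, adjusted p = 0.00238) and was higher in chronic than in remission libraries (log2 fold change 3.09 ± 0.67 SE, adjusted p = 0.0277). Without chronic replicate 3, the chronic to control values were 1.32 for Chaf1b (adjusted p = 0.278) and 1.16 for Chaf1a (adjusted p = 0.267), and the chronic to remission value of Chaf1a was 2.32 (adjusted p = 0.16). Leaving out control replicate 2 or 3 also ended the chronic calls of both genes against control, and control replicate 1 that of Chaf1a. The chronic to remission call of Chaf1a ended without control replicate 2 or remission replicates 2 or 3 as well, and with limma-voom or only the 2 groups compared. Chaf1a shares 52.5% of its exon bases with Ubxn6 on the other strand, and reads there cannot be told apart in unstranded libraries.

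**Figure D5:**
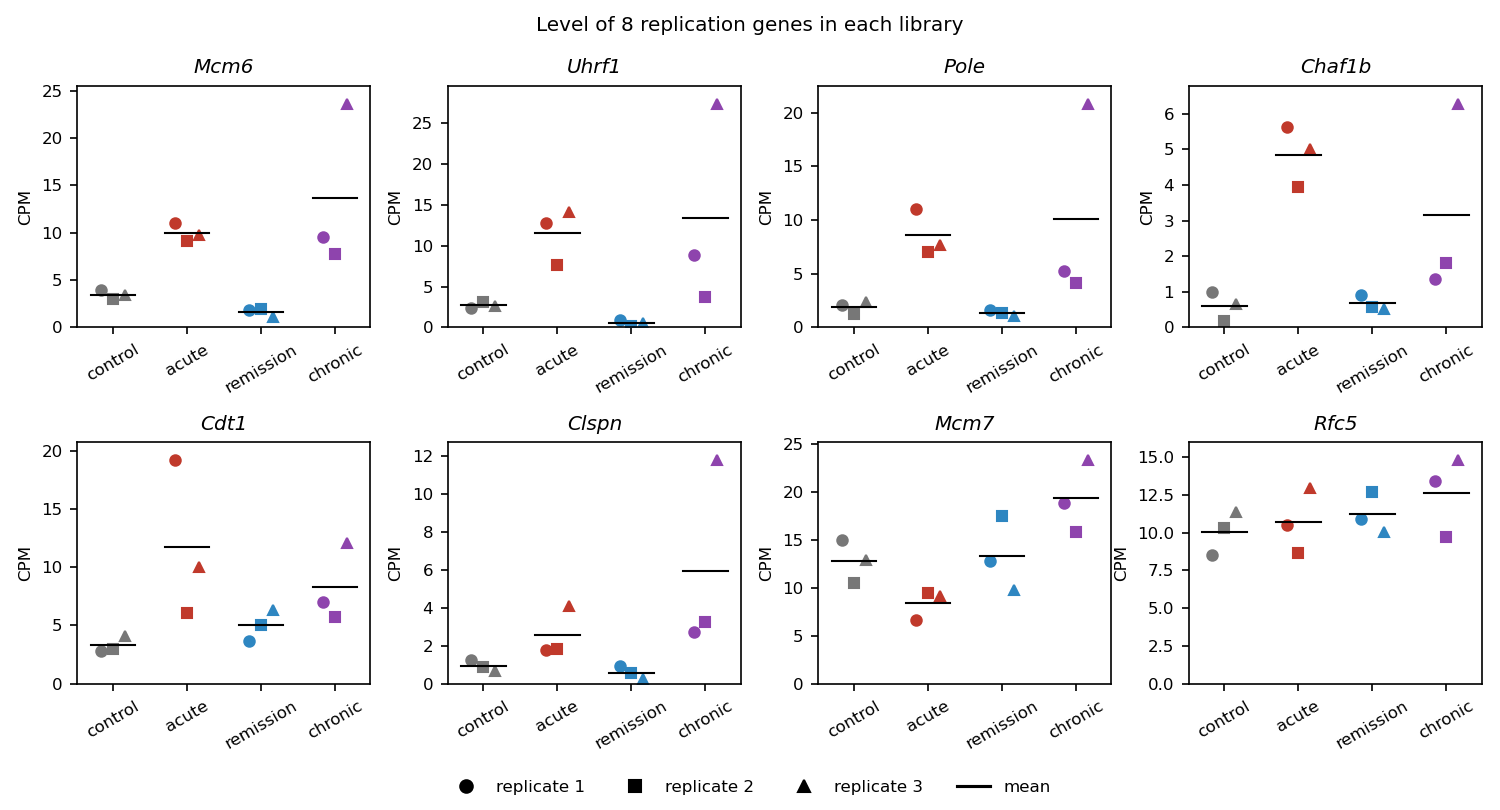
CPM in each library of 8 genes, with a symbol per replicate and a line at the group mean, each panel on its own linear axis from 0. Mcm6, Uhrf1, Pole and Chaf1b are higher in acute and chronic than in control and remission libraries. Chronic replicate 3 is the highest of the 12 libraries for these genes, and Chaf1b is at 1.36 and 1.8 CPM in chronic replicates 1 and 2. Mcm7 is lowest in acute libraries, and Rfc5 passed in none of the comparisons.

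Of 5 genes of S phase entry and its checkpoint, 3 were tested. Against control, Clspn and E2f1 were called in chronic and not in acute libraries, although chronic against acute passed for neither. Clspn encodes claspin, which relays the signal of stalled forks, and stood at 1.27, 0.875 and 0.645 CPM in control mice, 1.79, 1.83 and 4.12 in the acute phase, 0.925, 0.577 and 0.265 during remission and 2.73, 3.24 and 11.8 in the chronic phase. Every acute and chronic library was above every control and remission library. Clspn rose in chronic libraries (log2 fold change 2.57 ± 0.61 SE, adjusted p = 0.00555), a call that ended without chronic replicate 3 (log2 fold change 1.62, adjusted p = 0.127), while its acute value did not pass (log2 fold change 1.39 ± 0.66 SE, adjusted p = 0.0926). From acute to remission it fell (log2 fold change -2.0 ± 0.72 SE, adjusted p = 0.0337), a call that ended without acute replicate 3 or remission replicates 2 or 3, and with library totals or limma-voom. It was higher in chronic than in remission libraries (log2 fold change 3.19 ± 0.67 SE, adjusted p = 0.022), a call that ended without chronic replicate 3 or remission replicate 3, and with limma-voom or only the 2 groups compared. Chronic against acute gave an adjusted p of 0.13.

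E2f1, a transcription factor that drives S phase genes, stood at 5.66, 5.08 and 4.73 CPM in control mice, 5.12, 5.5 and 7.06 in the acute phase, 3.7, 5.19 and 5.3 during remission and 8.42, 7.38 and 13.6 in the chronic phase. All chronic libraries were above all others. E2f1 rose in chronic against control libraries (log2 fold change 0.90 ± 0.29 SE, adjusted p = 0.0419). That call ended without chronic replicate 3 (adjusted p = 0.277), without any 1 control library or without acute replicate 2. The title number, DESeq2, library totals and the fit with no filter each ended it too. Ccne2, which encodes cyclin E2, averaged 3.35 ± 1.43 CPM in control mice, 1.44 ± 0.149 in the acute phase, 2.73 ± 0.81 during remission and 2.4 ± 1.18 in the chronic phase. Its 3 acute libraries were below all control libraries, with a value that did not pass (log2 fold change -1.23 ± 0.52 SE, adjusted p = 0.0609), and that passed as lower without control replicate 3 and with library totals. Ccne1, the gene of cyclin E1, was not tested and had 4, 3 and 2 counts in control mice, 9, 5 and 2 in the acute phase, 1, 0 and 0 during remission and 3, 8 and 17 in the chronic phase. Exo1, a nuclease that resects DNA ends, was not tested and had 3, 2 and 1 counts in control mice, 3, 1 and 1 in the acute phase, 0, 0 and 0 during remission and 2, 5 and 21 in the chronic phase. Of its 28 chronic counts, 21 came from replicate 3.

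Genes of the later cell cycle phases were followed as a separate list of 32 genes of G2 and M phase, of which 25 were tested. In acute against control libraries 13 rose and 0 fell (median log2 fold change 1.57), where 23.3% of all genes rose and 20.4% fell. In chronic against control 15 rose and 0 fell (median 2.14), where 9.51% of all genes rose and 5.22% fell. Their summed level was 60.6, 48.8 and 45 CPM in control mice, 217, 161 and 211 in the acute phase, 49.4, 26.7 and 24.1 during remission and 117, 107 and 539 in the chronic phase, so chronic replicate 3 was 4.82 times the mean of the other 2. Without that library 4 of 26 rose in the chronic comparison, where 7.2% of all genes did. Cdc25b, a phosphatase that starts mitosis, rose in acute (log2 fold change 2.6 ± 0.59 SE, adjusted p = 0.00138) and chronic libraries (log2 fold change 2.29 ± 0.59 SE, adjusted p = 0.0115). Ube2c, Plk1 and Aurkb, a ubiquitin enzyme and a pair of kinases of mitosis, also rose in acute libraries, with log2 fold changes of 4.13, 2.99 and 2.81, and in chronic ones. All 4 chronic calls ended without chronic replicate 3, at adjusted p = 0.133 for Cdc25b, 0.676 for Ube2c, 0.151 for Plk1 and 0.0705 for Aurkb, while their acute calls held in every alternative. Mki67, which encodes a protein of dividing cells, averaged 8.17 ± 0.285 CPM in control mice, 55.8 ± 11.9 in the acute phase, 3.72 ± 3.16 during remission and 57 ± 57.7 in the chronic phase, and rose in acute (log2 fold change 2.77 ± 0.75 SE, adjusted p = 0.0167) and chronic libraries (log2 fold change 2.78 ± 0.75 SE, adjusted p = 0.0408). Top2a, which untangles sister DNA, averaged 4.21 ± 1.94, 18.8 ± 3.68, 2.35 ± 1.83 and 33 ± 31 CPM and rose in acute (log2 fold change 2.1 ± 0.73 SE, adjusted p = 0.0435) and chronic libraries (log2 fold change 2.9 ± 0.71 SE, adjusted p = 0.0244). Without chronic replicate 3 the chronic calls of Mki67 and Top2a held, at 1.52 for Mki67 (adjusted p = 0.0137) and 1.8 for Top2a (adjusted p = 0.00366), but both ended without any 1 control library, as did the acute calls of both genes. In all, the chronic call of Mki67 was lost in 12 settings and that of Top2a in 5, and their acute calls in 4 and 11. From acute to remission 17 of the 25 fell and 0 rose, where 18.8% of all genes fell and 18.3% rose.

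Among 40 further replication factors, 37 were tested, and 10 rose and 2 fell in acute against control libraries (median 0.33), where 23.3% of all genes rose and 20.4% fell. In chronic against control 4 rose and 0 fell (median 0.18), where 9.51% of all genes rose and 5.22% fell, so the share that rose was near that of all genes in both. Dna2, a helicase and nuclease of lagging strand processing, rose in the acute phase and reached 88.2 ± 1.38 CPM against 15 ± 1.35 in control libraries (log2 fold change 2.56 ± 0.18 SE, adjusted p = 6.4e-10). It was also above control in remission, at 38.7 ± 5.31 CPM (log2 fold change 1.37 ± 0.18 SE, adjusted p = 2.66e-05). Timeless, which protects the fork, rose in the acute phase and reached 11.1 ± 3.35 CPM against 2.12 ± 0.468 in control libraries (log2 fold change 2.37 ± 0.46 SE, adjusted p = 0.000284). Wdhd1, which links the helicase to polymerase alpha, rose in the acute phase and reached 8.81 ± 2.06 CPM against 2.72 ± 0.145 in control libraries (log2 fold change 1.69 ± 0.36 SE, adjusted p = 0.00073), and the ribonuclease H2 subunit Rnaseh2b reached 11.2 ± 0.792 CPM against 4.05 ± 1.02 in control libraries (log2 fold change 1.48 ± 0.27 SE, adjusted p = 0.000133). Rnaseh2b also rose in remission, a call lost in 3 settings. The 4 that rose in chronic libraries were Dna2, Timeless, Wdhd1 and Rnaseh2b. The chronic calls of Dna2 and Wdhd1 held in every alternative, and those of Timeless and Rnaseh2b were lost in 8 and 7 settings. Without chronic replicate 3, 2 of 38 rose in the chronic comparison. They were Dna2 (log2 fold change 1.58, adjusted p = 2.97e-07) and Wdhd1 (log2 fold change 1.21, adjusted p = 0.0301). With library totals 5 rose and 9 fell in the acute comparison, where 22.8% of the 7035 calls over all genes were higher.

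Of 25 genes of nucleotide supply and turnover, 23 were tested, and 8 rose and 2 fell in acute against control libraries (median 0.24), where 23.3% of all genes rose and 20.4% fell. In chronic against control libraries 0 rose and 0 fell by edgeR, where 9.51% of all genes rose and 5.22% fell. The gene with the smallest p, Samhd1, encodes an enzyme that breaks deoxynucleotides down and restricts viruses in myeloid cells, and it went from 79.3 ± 9.69 CPM in control to 384 ± 44 in acute (log2 fold change 2.28 ± 0.19 SE, adjusted p = 2.88e-08), 90.1 ± 10.4 in remission and 104 ± 31.8 in chronic libraries. Cmpk1, a kinase of pyrimidine nucleotides, rose in the acute phase and reached 21.6 ± 1.63 CPM against 6.91 ± 1.59 in control libraries (log2 fold change 1.65 ± 0.24 SE, adjusted p = 1.11e-05), and Cmpk2, a mitochondrial kinase induced by interferon, reached 14.2 ± 8.7 CPM against 1.82 ± 1.47 in control libraries (log2 fold change 2.97 ± 0.58 SE, adjusted p = 0.000687). Impdh1, an enzyme of guanine nucleotide synthesis, rose in the acute phase and reached 5.24 ± 1.88 CPM against 0.936 ± 0.386 in control libraries (log2 fold change 2.48 ± 0.52 SE, adjusted p = 0.000591). With library totals, 5 rose and 6 fell in the acute comparison, where 22.8% of the 7035 calls over all genes were higher. These named genes rose in the libraries in which monocyte markers summed to 1777 to 2683 CPM, and the part of monocytes was not tested.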

How the data were processed

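RNA of sorted spinal cord microglia from 12 mice was sequenced, 3 mice per group. Per the labels' protocols, RNA was reverse transcribed with random hexamers, libraries were made with a transposase kit (Nextera XT) that does not keep the strand, and single reads were run on a single flow cell. Per the submitters' processing notes, the tools were HISAT2, SAMtools 1.3.1, Picard 2.6.4 and HTSeq 0.6.1 with the genome GRCm38. The annotation release and the strand setting of the counting are not given in the sources used here. The authors deposited raw counts of reads per gene, in single files and in a joint table, and the 12 single files equalled their table columns.

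Symbols and coordinates came from GENCODE M21 (GRCm38), which held 48144 of the 48526 identifiers. In R 4.3.3, edgeR 4.0.16 fitted the 4 groups to all 12 libraries with TMM factors after its default filter (12545 genes left), and 6 comparisons were tested with robust quasi-likelihood tests and Benjamini-Hochberg adjustment over all genes tested, with a threshold of 0.05. The SE is the log2 fold change divided by the square root of its F statistic. The fit was tested on simulated data. Between 1266782 and 2496096 counts per library remained outside the 6 top features and mitochondrial genes and set the precision. Replicate numbers are the order of the records and pair no mice. The alternatives were DESeq2 1.42.0, limma-voom (limma 3.58.1), DESeq2 size factors, library totals, removal of the 6 top features and mitochondrial genes, no filter, at least 20 counts in 3 libraries, only the 2 groups compared, the number in the titles as a covariate, and each library left out in turn.

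The members and all lists were chosen with earlier results of these data known. Members called in any comparison are given with their value in every library, and of each other list up to 4 genes with the smallest p in acute against control are named, plus Samhd1, Mki67, Top2a, Ccnd1, Cdkn1a and Myc.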

Additional observations from a re-analysis of the deposited data

How the results depend on the processing

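Across 41 single calls of members, no alternative turned a direction. With a library left out, 9, 9 and 10 of the 41 calls were lost without control replicates 1, 2 and 3, 7, 5 and 6 without acute, 5, 7 and 9 without remission and 0, 0 and 14 without chronic replicates 1, 2 and 3. Otherwise calls were lost in 10 cases with limma-voom, 9 with library totals, 8 of 35 that could be recomputed with only the 2 groups compared, 7 with the title number (which is 1 in all 3 chronic libraries and 2 in 2 of the 3 acute ones, so it cannot be fully told apart from phase; it ended calls of Chaf1a in acute and of Cdt1, Uhrf1 and E2f1 in chronic against control, of Mcm2 and Mcm7 in remission against acute, and of Mcm5 in chronic against remission), 2 with DESeq2, 1 with DESeq2 size factors, 1 with no filter, and 0 with the stricter filter (29 recomputed) or without the 6 top features and mitochondrial genes. Members lower in acute against control numbered 0, and 4 with library totals, 1 with no filter, 1 with only the 2 groups and 0 to 1 when a library was left out. Members lower in remission against control numbered 0, and 2 with library totals, 2 with no filter, 1 with only the 2 groups, 1 with DESeq2 and 0 to 1 with a library left out. The 11 higher in chronic against control were 6 with only the 2 groups and 1 to 16 with a library left out. The 1 higher in remission against acute was 0 with DESeq2 size factors, the title number, only the 2 groups, limma-voom and DESeq2, and 0 to 1 with a library left out. The 1 higher in chronic against acute was 2 with library totals, 2 with the title number and 1 to 3 with a library left out. The 6 higher in chronic against remission were 18 with no filter, 1 with only the 2 groups, 1 with limma-voom, 11 with DESeq2 and 1 to 10 with a library left out. The summed log2 ratio of the members moved with library totals from 0.62 to 0.063 for acute against control, from -0.19 to -0.46 for remission against control and from -0.81 to -0.52 for remission against acute. With a library left out it ranged from 0.42 to 1.17 for chronic against control (0.95 with all), from 0.62 to 1.37 for chronic against remission (1.14 with all) and from -0.21, without chronic replicate 3, to 0.55 for chronic against acute (0.33 with all). The cause was not tested.

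Library totals shifted the median of all genes by -0.54, -0.25 and -0.36 (log2) for acute, remission and chronic against control, and the share of calls that were higher went from 53.3 to 22.8%, 66.0 to 32.4% and 64.6 to 21.8%. For remission against acute it went from 49.4 to 71.1%, for chronic against acute from 47.4 to 64.6% and for chronic against remission from 77.2 to 62.1%. Genes called in chronic against control numbered 1848, and 3223 with library totals. Those in chronic against acute numbered 3623, and 2412 with the title number. Those in chronic against remission numbered 149, and 828 with no filter, 26 with only the 2 groups, 53 with limma-voom and 385 with DESeq2. No paired analysis was possible because the replicate numbers are record order and pair no mice. Members with few counts limit what can be shown, since 1 count was worth up to 0.294 CPM.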

Other observations

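Control of the step from G1 to S phase was examined in 31 genes (E2F factors, pocket proteins, D cyclins and inhibitors among them), of which 30 were tested. In acute against control libraries 6 rose and 6 fell (median 0.38), where 23.3% of all genes rose and 20.4% fell. In chronic against control 2 rose and 3 fell (median 0.0095), where 9.51% of all genes rose and 5.22% fell. E2f2 rose in the acute phase and reached 28.6 ± 5.64 CPM against 3.39 ± 1.0 in control libraries (log2 fold change 3.07 ± 0.34 SE, adjusted p = 5e-07) and stood at 4.71 ± 2.33 in remission and 6.03 ± 2.76 in chronic libraries. Ccnd1, the cyclin D1 gene, fell in each disease group, from 49.2 ± 6.51 CPM in control to 19.1 ± 2.36 in acute (log2 fold change -1.36 ± 0.20 SE, adjusted p = 1.18e-05), 15.3 ± 5.13 in remission (log2 fold change -1.66 ± 0.20 SE, adjusted p = 8.02e-06) and 18.7 ± 2.23 in chronic libraries (log2 fold change -1.38 ± 0.20 SE, adjusted p = 3.8e-05). Cdkn1a, the p21 inhibitor of cyclin-dependent kinases, rose in the acute phase and reached 17.3 ± 3.91 CPM against 6.92 ± 2.72 in control libraries (log2 fold change 1.35 ± 0.29 SE, adjusted p = 0.000714) and was below control in remission, at 2.19 ± 0.293 CPM (log2 fold change -1.61 ± 0.35 SE, adjusted p = 0.00405). Cdkn2d, another inhibitor, rose in the acute phase and reached 4.7 ± 2.13 CPM against 0.675 ± 0.438 in control libraries (log2 fold change 2.74 ± 0.60 SE, adjusted p = 0.000936), and Myc fell in the acute phase and reached 7.62 ± 1.56 CPM against 16.1 ± 3.58 in control libraries (log2 fold change -1.07 ± 0.24 SE, adjusted p = 0.00123). With library totals, 3 rose and 8 fell in the acute comparison, where 22.8% of the 7035 calls over all genes were higher.

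Of 25 genes of replication stress and the S phase checkpoint, 22 were tested, and 7 rose and 2 fell in acute against control (median -0.012), where 23.3% of all genes rose and 20.4% fell. In chronic against control 4 rose and 0 fell (median 0.23), where 9.51% of all genes rose and 5.22% fell. Brca1 rose in the acute phase and reached 4.61 ± 2.38 CPM against 1.05 ± 0.316 in control libraries (log2 fold change 2.06 ± 0.60 SE, adjusted p = 0.00882) and 7.3 ± 5.26 in chronic libraries (log2 fold change 2.72 ± 0.58 SE, adjusted p = 0.00245). Fanca, of the Fanconi anaemia pathway, rose in the acute phase and reached 18.2 ± 2.51 CPM against 2.45 ± 0.959 in control libraries (log2 fold change 2.83 ± 0.57 SE, adjusted p = 0.00146), and Rad18, a ubiquitin ligase that modifies Pcna, reached 5.68 ± 0.434 CPM against 1.93 ± 0.402 in control libraries (log2 fold change 1.56 ± 0.42 SE, adjusted p = 0.00472). Rmi1, which helps dissolve joined DNA molecules, fell in the acute phase and reached 4.77 ± 0.504 CPM against 15.6 ± 2.84 in control libraries (log2 fold change -1.71 ± 0.28 SE, adjusted p = 3.81e-05). The acute call of Rad18 ended with library totals and that of Brca1 without acute replicate 3. Fanca also rose in chronic libraries, a call lost in 3 settings. With library totals 2 rose and 10 fell in the acute comparison, where 22.8% of the 7035 calls over all genes were higher. Without chronic replicate 3 the chronic comparison gave 3 higher and 0 lower, where 7.2% of all genes were higher. Counts of these other lists without chronic replicate 3 or with library totals were added after the data were seen. Among G2 and M phase genes, library totals gave 7 higher and 0 lower of 25 in acute and 14 higher and 0 lower in chronic against control libraries. Over all genes, 22.8% of 7035 calls in acute and 21.8% of 3223 calls in chronic against control were higher in that setting.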
